A study of Mus musculus with 32 samples.

Results

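Transforming growth factor beta (TGF beta) is secreted as a latent dimer that is released outside the cell and then brings together a type II and a type I receptor kinase. The active receptor complex phosphorylates Smad2 and Smad3, which bind Smad4, enter the nucleus and switch on target genes, among them the inhibitory Smad7 and the secreted matricellular protein connective tissue growth factor. In the liver the pathway is best known for turning hepatic stellate cells into matrix-producing myofibroblasts and for restraining the division of hepatocytes.

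The genes described here were the 3 ligands Tgfb1, Tgfb2 and Tgfb3, the receptors Tgfbr1, Tgfbr2 and Tgfbr3, the signal transducer Smad3, and the 2 direct targets Smad7 and Ctgf, which RefSeq now calls Ccn2. They were found by gene name among the non-control probes of a mouse liver array. All 9 genes were present, with 15 of the 55681 probes, and all 9 were among the 21071 genes tested.

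Liver RNA came from male C57/BL6 mice, 8 weeks old when the diets began, with 4 arrays in each of 8 groups. C mice were given chow and MCD mice a diet deficient in methionine and choline, which causes steatohepatitis, and both received saline. Mice called C+Fc-GLP-1 were on chow and those called M+Fc-GLP-1 on the MCD diet, and both received Fc-GLP-1, a GLP-1 receptor agonist fused to an antibody Fc domain. Livers removed at partial hepatectomy (PH) gave the groups before PH, after 3 weeks of diet and 2 weeks of drug, and livers taken 2 weeks after a 70% PH, with diet and drug continued, gave the groups after PH. The groups after PH hold only mice that survived it, and the study reported better survival in mice given Fc-GLP-1. Part of the array labels describes the drug as a dual GLP1R/GCGR agonist while another part, like the study's methods, calls it Fc-GLP-1, and the array values do not settle this. The design text describes 4 independent livers per group, and the labels do not say whether a mouse gave both its liver at PH and its regrown liver.

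Each value given for a gene is the log2 of its processed probe intensity minus the log2 of the 75th percentile of intensity on that array, so 0 stands for a spot at that percentile and a difference of 1 for a 2-fold difference in intensity. The scale allows a gene to be compared between arrays but not with another gene's probe. A difference was called when its p-value from limma, fitted to all 8 groups and adjusted by the Benjamini-Hochberg method over the 21071 genes, was under 0.05. The p-values measure the spread between these arrays. Since whole liver was measured, fewer cells of a type and less RNA per cell cannot be told apart.

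Hepatocyte markers were high throughout, the mean of 9 tested genes lying between 7.95 and 9.21 on the 32 arrays. The arrays lay on 5 slides. C and MCD before PH shared a slide, as did the pair of treated groups before PH and again after PH, so diet was compared within a slide in these 3 pairs. In the other comparisons slide and group cannot be told apart. Of the arrays after PH, 3 stood apart: in C replicate 1, C+Fc-GLP-1 replicate 1 and M+Fc-GLP-1 replicate 4 the mean of 7 tested bile duct (cholangiocyte) markers was 0.57, 0.90 and 1.64, against -0.18 or lower on the other 29 arrays. The results that these arrays move most are given with and without them. The C and MCD groups after PH were also read on a second scanner and scan day, and the 6 other groups on the first, so for those groups time and drug cannot be told apart from the scanner either.

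The probes whose values carry the results are shown in part, so that the sequence behind each number can be seen. For Ctgf and Tgfbr3 these are the first 30 of the 60 bases, which lie at chr10:24318281-24318310 on the plus strand and chr5:107535848-107535877 on the minus strand of the mm9 build. For Tgfb1 (chr7:26489877-26489936, plus strand) and Tgfb2 (chr1:188449333-188449392, minus strand) the whole probes are shown, because both read the end of the coding sequence of the mature ligand. Capitals mark the bases that Tgfb1 and Tgfb2 share in the best overlap without gaps, 28 of 41 bases or 68.3%.
Ctgf: gtcaaatccctgttggtgaacaaatggcct
Tgfbr3: gggggttcgttcattaaactgacagatatt
Tgfb1: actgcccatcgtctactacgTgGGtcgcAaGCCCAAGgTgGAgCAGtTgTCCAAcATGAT
Tgfb2: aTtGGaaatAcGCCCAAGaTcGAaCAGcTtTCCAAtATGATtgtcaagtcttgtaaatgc

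The clearest result among the 9 genes was in Ctgf, the target gene. Before PH, Ctgf was 3.74-fold higher in MCD than in C mice and 3.98-fold higher in M+Fc-GLP-1 than in C+Fc-GLP-1 mice. In the first comparison Ctgf alone of the 9 was called, against 26.5% of all genes. None of the 3 ligands, Tgfbr1, Tgfbr2, Smad3 or Smad7 was called for diet or Fc-GLP-1 at either time, except Tgfbr2 and Tgfb2 in alternative analyses. Changes in these genes are not excluded, because the intervals were wide. For MCD against C mice before PH they were -0.62 to 2.18 for Tgfb2 and -0.19 to 1.33 for Tgfbr1. Tgfbr3, the co-receptor betaglycan that presents ligand to the type II receptor, was the other gene to be called more than once. It was higher with MCD in 2 comparisons and lower after PH in C mice.

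**Figure D1:**
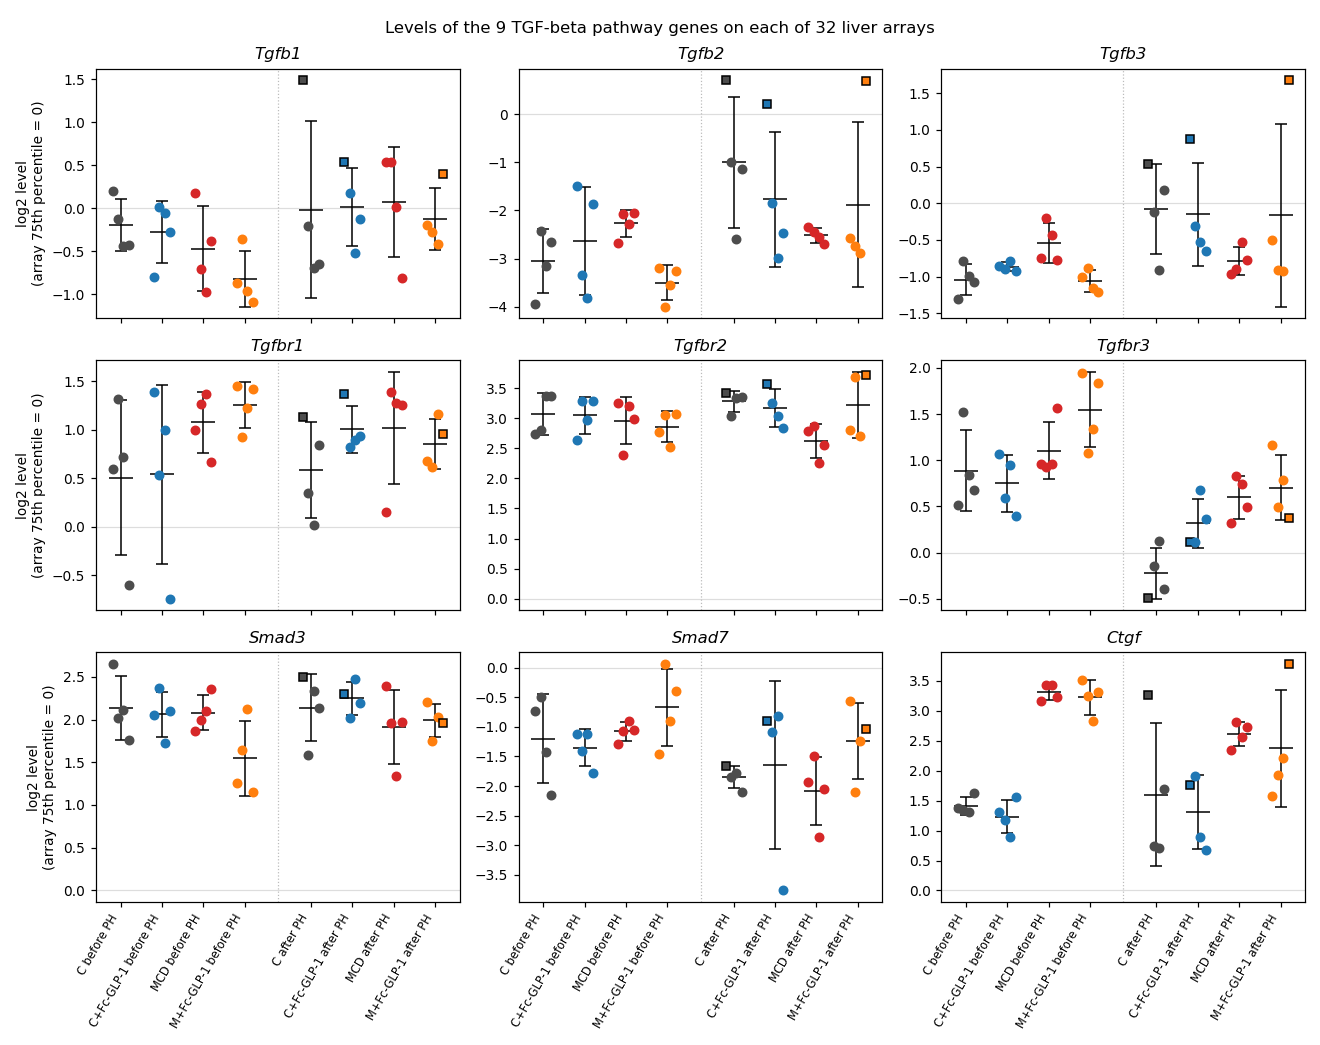
Values of the 9 genes on each of the 32 arrays, 1 panel per gene, as log2 intensity relative to the array's 75th percentile. Dots are arrays, black bars are the mean ± SD of the 4 arrays of a group, and black-edged squares are the 3 arrays whose mean bile duct marker level was above 0. Ctgf separates MCD from chow before PH, the mean of Tgfbr3 is lower after PH than before it in each of the 4 conditions, and the highest Tgfb2 values are those of the 3 square symbols.

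Ctgf (NCBI gene 14219) encodes a secreted protein that binds matrix and growth factors and accompanies fibrosis. Its values before PH were 1.38, 1.34, 1.31 and 1.62 in C mice and 3.16, 3.43, 3.44 and 3.23 in MCD mice. They were 1.30, 1.18, 0.89 and 1.56 in C+Fc-GLP-1 mice and 3.51, 3.24, 2.83 and 3.32 in M+Fc-GLP-1 mice. The lowest of the 8 arrays from MCD-fed mice was more than 1 log2 unit above the highest of the 8 arrays from chow-fed mice.

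The difference between MCD and C mice was 1.90 on the log2 scale (SE 0.42, n = 4 per group, adjusted p = 0.00131 by limma). Of the 9 genes, Ctgf alone was called in this comparison, in which 26.5% of all genes tested were called. The difference between M+Fc-GLP-1 and C+Fc-GLP-1 mice was 1.99 (SE 0.42, limma adjusted p = 0.00187), and here Ctgf and Tgfbr3 were called, with 10.4% of all genes. Both Ctgf differences passed the threshold in 15 of 15 alternative analyses each, with adjusted p from 0.000202 to 0.00463 and from 0.00169 to 0.0133.

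No difference in Ctgf with Fc-GLP-1 was called on either diet. In MCD mice before PH the treated minus untreated difference was -0.09, with a 95% interval of -0.94 to 0.76, and in chow-fed mice it was -0.18. The diet by drug interaction was 0.09 (adjusted p = 0.947 by limma). The interval still allows a change of nearly 1 log2 unit downward in MCD mice. After PH the treated minus untreated difference in MCD mice was -0.24 (limma adjusted p = 0.784), and -0.71 (adjusted p = 0.108) without the 3 arrays. In chow-fed mice after PH it was -0.29 (adjusted p = 0.823), and 0.11 without them.

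After PH the separation by diet was less clean. Ctgf was 3.26, 0.74, 0.70 and 1.70 in C mice, 1.76, 1.91, 0.90 and 0.67 in C+Fc-GLP-1 mice, 2.35, 2.82, 2.57 and 2.73 in MCD mice, and 1.58, 1.92, 2.21 and 3.79 in M+Fc-GLP-1 mice. The MCD arrays lay above 3 of the 4 C arrays and below the fourth, C replicate 1, and M+Fc-GLP-1 replicate 4 held the highest value of all 32 arrays. Both are among the 3 arrays with high bile duct markers.

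The MCD minus C difference after PH was 1.02 (SE 0.42, adjusted p = 0.112 by limma) with all arrays, and 1.57 (adjusted p = 0.000185) without those 3 arrays. Between M+Fc-GLP-1 and C+Fc-GLP-1 mice it was 1.07 (limma adjusted p = 0.092), 0.75 (adjusted p = 0.102) without those 3 arrays, and 0.60 (adjusted p = 0.375) when M+Fc-GLP-1 replicate 4 alone was left out. In M+Fc-GLP-1 mice the after minus before difference of Ctgf was -0.85 (limma adjusted p = 0.311), and -1.32 (adjusted p = 0.00844) without the 3 arrays. The interaction of diet and time in untreated mice, -0.89 with all arrays and -0.33 without the 3, was not called (limma adjusted p = 0.425 and 0.690), so the data do not show that the effect of diet on Ctgf differed between the times. Ordered by group mean, Ctgf ran from MCD before PH (3.32 ± 0.14, SD, n = 4) through M+Fc-GLP-1 before PH (3.23 ± 0.29), MCD after PH (2.62 ± 0.20) and M+Fc-GLP-1 after PH (2.38 ± 0.98) to the 4 chow groups, between 1.60 ± 1.20 and 1.23 ± 0.28. Neighbours in this order overlapped in their arrays, except M+Fc-GLP-1 before PH, at 2.83 or higher, and MCD after PH, at 2.82 or lower.

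**Figure D2:**
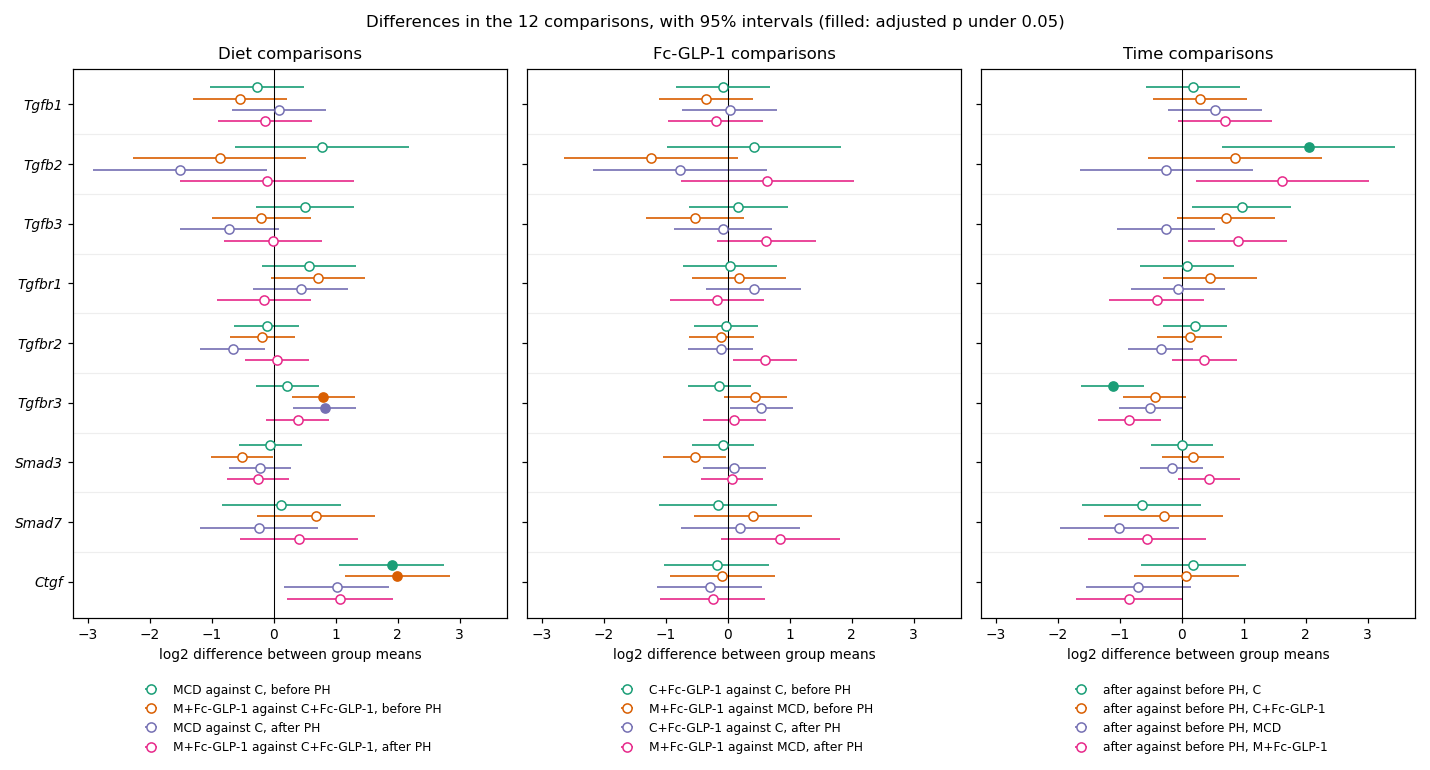
Differences between groups for the 9 genes on the log2 scale, in 3 panels for diet, Fc-GLP-1 and time after PH. Symbols are limma estimates, bars are 95% intervals, and filled symbols have an adjusted p under 0.05. The filled symbols are Ctgf for diet before PH, Tgfbr3 for diet in treated mice before PH and untreated mice after PH, and Tgfb2 (upward) and Tgfbr3 (downward) for C mice after against before PH.

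The 3 genes whose levels followed Ctgf most closely over the 32 arrays were Abcb1a, a drug efflux pump (Pearson r = 0.87), Cpeb1, an mRNA-binding protein (0.86), and Sema3b, a secreted semaphorin (0.85). These correlations describe arrays that share group, slide and diet. After the group means were removed they were 0.70, 0.57 and 0.45. Sema3b, for example, was -1.56 ± 0.33 in C and 1.81 ± 0.73 in MCD mice before PH (SD, n = 4).

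Tgfbr3 (NCBI gene 21814) was the receptor that was called. Before PH its values were 0.51, 1.52, 0.84 and 0.68 in C mice, 1.06, 0.59, 0.95 and 0.40 in C+Fc-GLP-1 mice, 0.96, 0.93, 0.96 and 1.57 in MCD mice, and 1.94, 1.08, 1.34 and 1.84 in M+Fc-GLP-1 mice. After PH they were -0.49, -0.15, 0.12 and -0.39 in C mice, 0.11, 0.11, 0.68 and 0.36 in C+Fc-GLP-1 mice, 0.32, 0.83, 0.74 and 0.49 in MCD mice, and 1.17, 0.49, 0.78 and 0.37 in M+Fc-GLP-1 mice. The 4 C arrays after PH did not overlap with the C arrays before PH, and neither did the MCD arrays of the 2 times, whereas the treated groups overlapped between times. Only the untreated groups changed scanner between the times, so this contrast cannot be told apart from the scanner.

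In C mice the after minus before difference of Tgfbr3 was -1.11 on the log2 scale, or -53.7% (SE 0.25, adjusted p = 0.00367 by limma), and this passed in 15 of 15 alternatives, with adjusted p from 0.00179 to 0.0496. No alternative separates time from slide and scanner. Tgfbr3 and Tgfb2 were the 2 genes of 9 called in that comparison, against 14% of all genes. The after minus before differences in the other groups had the same sign without being called, at -0.43 in C+Fc-GLP-1, -0.51 in MCD and -0.85 in M+Fc-GLP-1 mice (limma adjusted p = 0.408, 0.211 and 0.0744). No interaction of time with diet or Fc-GLP-1 was called for Tgfbr3, and 0.68 (adjusted p = 0.423 by limma) for Fc-GLP-1 by time on chow had the lowest unadjusted p of them, 0.0632.

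With diet, Tgfbr3 was higher by 0.80 in M+Fc-GLP-1 than in C+Fc-GLP-1 mice before PH (SE 0.25, limma adjusted p = 0.0361) and by 0.82 in MCD than in C mice after PH (SE 0.25, adjusted p = 0.0276). In the second of these it was the only gene of the 9 to be called, against 12.1% of all genes. In both the groups did not overlap, but the calls were near the threshold. The first held in 8 of 15 alternatives (adjusted p from 0.0171 to 0.130) and the second in 8 of 16 (0.00783 to 0.0912). Without the 3 arrays of high bile duct marker level the second was 0.73 (limma adjusted p = 0.0653).

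The genes most like Tgfbr3 over the 32 arrays were Slc37a4, the glucose-6-phosphate transporter of the endoplasmic reticulum (r = 0.83), Pde2a, a cyclic nucleotide phosphodiesterase (0.82), and Pcp4l1 (0.82). Within groups these correlations were 0.49, 0.44 and 0.35. Pcp4l1 was 1.23 ± 0.47 before and -1.57 ± 0.89 after PH in C mice (SD, n = 4).

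The kinase receptors showed no called change. Tgfbr1, the type I receptor, had group means between 0.51 and 1.26, and its MCD minus C difference before PH was 0.57 (95% interval -0.19 to 1.33). Tgfbr2, the type II receptor that binds ligand first, had means between 2.63 and 3.29. Its lowest group was MCD after PH, with 2.80, 2.88, 2.27 and 2.56 against 3.43, 3.03, 3.34 and 3.35 in C mice after PH.

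Those 2 Tgfbr2 groups did not overlap, and their difference of -0.66 (SE 0.26) had an adjusted p of 0.0898 by limma. M+Fc-GLP-1 mice after PH were higher than MCD mice by 0.60 (adjusted p = 0.157), and by 0.44 without the 3 arrays (adjusted p = 0.335). Other probes of the receptors followed the ones used only loosely, with r = 0.34 for the second Tgfbr2 probe and between -0.18 and 0.19 for the 3 further Tgfbr1 probes, all of which were dimmer. On the second Tgfbr2 probe the means after PH were -1.48 in C, -2.17 in MCD and -1.48 in M+Fc-GLP-1 mice. Both differences from MCD had the same direction as on the used probe, with overlapping arrays. When the probes of a gene were averaged, Tgfbr2 and Tgfb2 joined Tgfbr3 among the genes called for diet after PH. For Tgfb2 the average took in a second, dimmer probe, with means of -2.32 in C and -4.83 in MCD mice after PH. This probe clearly exceeded background in 4 of 4 C and 0 of 4 MCD arrays after PH. Only the C group after PH carried it past the filter on dim probes. The averaged Tgfb2 call is therefore not independent of that filter, and the size of the difference is uncertain.

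Of the ligands, Tgfb1, the isoform most often tied to fibrosis, had group means between -0.82 and 0.07 and was called nowhere. Its largest difference was between M+Fc-GLP-1 mice after and before PH, 0.70 (95% interval -0.06 to 1.46, limma adjusted p = 0.360). The highest Tgfb1 value, 1.49, was C replicate 1 after PH.

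Tgfb2 (NCBI gene 21808), the ligand that depends most on Tgfbr3 for binding, was dim. Its used probe was well above background on 28 of 32 arrays, with 2 of 4 arrays in each treated group before PH. In C mice the values were -3.94, -2.44, -3.16 and -2.67 before and 0.71, -0.98, -2.60 and -1.13 after PH. One C array after PH lay within the range before PH.

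Tgfb2 was higher after PH in C mice by 2.05 on the log2 scale (SE 0.68, adjusted p = 0.0434 by limma). This passed in 6 of 15 alternatives, with adjusted p up to 0.193 when C replicate 1 after PH was left out of the fit, where the difference was 1.48. When all 3 arrays of high bile duct marker level were left out it was 1.48 with an adjusted p of 0.041. With normexp background correction and quantile normalization it was 0.97 (limma adjusted p = 0.113).

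In M+Fc-GLP-1 mice Tgfb2 was -3.20, -3.996, -3.56 and -3.26 before and -2.57, -2.75, -2.89 and 0.69 after PH. These groups did not overlap, and the difference was 1.63 (limma adjusted p = 0.226), but 0.77 (adjusted p = 0.428) without replicate 4 and the other arrays of high bile duct marker level. With only 2 of the 4 arrays before PH well above background, its size is uncertain. MCD mice gave -2.67, -2.07, -2.27 and -2.06 before and -2.35, -2.46, -2.55 and -2.70 after PH, a difference of -0.25 (adjusted p = 0.872). The interaction of diet and time in untreated mice was -2.30 (SE 0.97, limma adjusted p = 0.181), and -1.73 (adjusted p = 0.129) without the 3 arrays, and was not called.

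Tgfb3, the third ligand, known from palate closure and wound repair, had the same order of group means as Tgfb2. In C mice it was -1.31, -0.78, -0.997 and -1.07 before and 0.53, -0.11, -0.91 and 0.19 after PH, a difference of 0.97 (SE 0.39, adjusted p = 0.0922 by limma), and without the 3 arrays 0.76 (adjusted p = 0.0351). In MCD mice the difference was -0.25. Tgfb3 correlated with Tgfb2 over the 32 arrays at r = 0.87, and at 0.69 over the 29 without the 3 arrays.

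**Figure D3:**
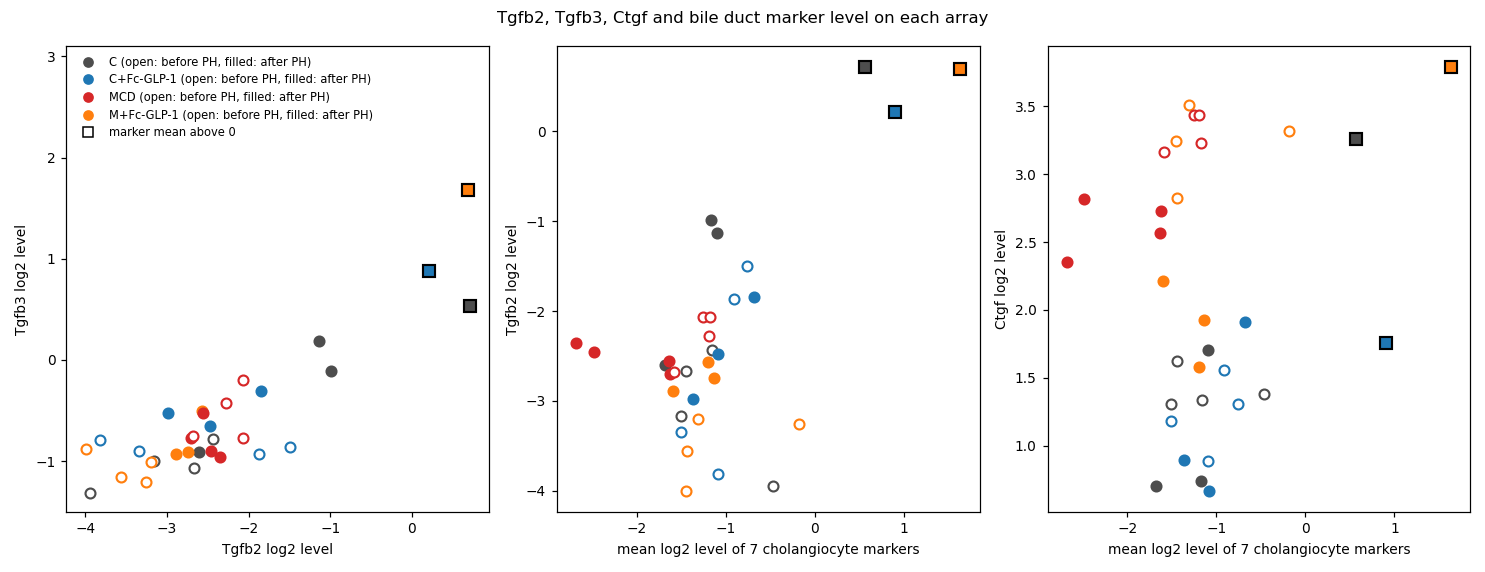
Tgfb3 (y axis) against Tgfb2 (x axis), and Tgfb2 and Ctgf (y axes) against the mean of 7 bile duct marker genes (x axes), each on the log2 scale relative to the array's 75th percentile, 1 point per array. Open symbols are arrays before PH, filled symbols arrays after PH, and squares the 3 arrays whose marker mean was above 0. The squares hold the 3 highest values of Tgfb2 and Tgfb3, and for Ctgf 2 of the 3 lie within the range of the other arrays.

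The 3 arrays were high in genes of bile ducts and of stroma, as well as in the ligands Tgfb2 and Tgfb3. Tgfb2 was 0.71, 0.21 and 0.69 on them and -0.98 or lower on the other 29, and Tgfb3 was 0.53, 0.88 and 1.68 against 0.19 or lower. Tgfb1 was 1.49, 0.53 and 0.40 against up to 0.54, so only C replicate 1 exceeded the other 29. The arrays were singled out by the mean of the bile duct list, and its genes did not all separate them. Krt7, a bile duct keratin, was -0.05, 0.26 and 1.41 against -0.99 or lower, while Krt19, another, was 2.10, 1.84 and 3.34 against up to 2.44, and Sox9, a bile duct transcription factor, was 0.36, 0.45 and -0.13 against up to -0.11. Spp1, osteopontin, was 5.49, 5.998 and 5.51 against 3.61 or lower, and Col1a1, a fibrillar collagen chain, was 4.39, 3.67 and 2.84 against 1.95 or lower. Ltbp2 and Ltbp3, latent TGF beta binding proteins, and Fstl1, a secreted glycoprotein, also took their 3 highest values there.

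Ltbp3, Fstl1 and Tgfb3 were the genes most like Tgfb2 over all arrays, at r = 0.91, 0.89 and 0.87, and without the 3 arrays these were 0.77, 0.69 and 0.69. The mean of the hepatocyte list was 7.95, 8.56 and 8.52 on the 3 arrays, against 8.24 to 9.21 on the others, so C replicate 1 lay below them. Alb was between 9.62 and 10.14, against 9.33 to 10.72 on the others. The mean of recruited macrophages and monocytes was 3.61, 1.84 and 1.76, against 2.29 or lower. The part of these other cells in the Tgfb2, Tgfb3 and Ctgf values was not tested beyond leaving the arrays out.

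Smad3, the receptor-activated transducer, had group means between 1.55 and 2.25. M+Fc-GLP-1 mice before PH were lowest, with 1.26, 1.65, 2.12 and 1.16 against 1.86, 2.00, 2.10 and 2.36 in MCD mice. The groups overlapped, and the difference of -0.53 (SE 0.25) was not called (limma adjusted p = 0.180).

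Smad7, the feedback inhibitor that the pathway itself induces, was likewise not called anywhere. In MCD mice it was -1.29, -1.07, -0.90 and -1.06 before and -1.94, -1.49, -2.86 and -2.05 after PH, groups that did not overlap and differed by -1.003 (SE 0.47, limma adjusted p = 0.187). Before PH, where Ctgf was higher with MCD, the Smad7 difference between MCD and C mice was 0.12 (95% interval -0.83 to 1.08). Whether Smad7 and Ctgf differed in their response was not tested.

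For Fc-GLP-1 itself, limma called 0 of the 9 genes in any of the 4 comparisons with and without the drug. At an unadjusted p under 0.05 there were 0 in chow-fed and 1 (Smad3) in MCD-fed mice before PH, and 1 (Tgfbr3) and 1 (Tgfbr2) after PH. Over all genes limma called 2.11% and 7.22% before and 2.06% and 6.5% after PH. These shares are at the adjusted threshold, and no share over all genes is given for the unadjusted counts. Among the alternatives, Tgfbr3 was called in M+Fc-GLP-1 against MCD mice before PH under normexp with quantile normalization and with the authors' normalized values, and Tgfb2 when only these groups were fitted. Of all genes these settings called 12.1%, 10.1% and 6.86%. The Tgfb2 probe was well above background on 2 of the 4 M+Fc-GLP-1 arrays before PH, and the groups compared lay on different slides.

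For M+Fc-GLP-1 against C+Fc-GLP-1 mice after PH, 0 of 9 genes were called by limma, 1 (Ctgf) had an unadjusted p under 0.05, and 12.8% of all genes were called. Over time, limma called 0 of 9 in MCD mice, in treated mice on chow and in treated mice on MCD, with 2, 0 and 4 genes at an unadjusted p under 0.05 and 9.43%, 0.835% and 1.71% of all genes called. In the 6 interactions limma called 0 of 9 genes each, and 2 (Tgfb2 and Tgfb3, diet by time in untreated mice) and 1 (Tgfb3, Fc-GLP-1 by time on MCD) had an unadjusted p under 0.05. Of all genes, 6.15% were called for diet by drug before PH and 0% after it, 2.85% and 0.0949% for diet by time in untreated and treated mice, and 1.1% and 1.97% for drug by time on chow and MCD. Every share here, over time and in the interactions, is at the adjusted threshold. It cannot be set against the counts at an unadjusted p, for which no share over all genes is given.

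The wider pathway was described through 6 lists of 93 genes, of which 79 were tested. In MCD against C mice before PH, 16 of the 79 were higher and 8 lower, with 10.9% of all genes called higher and 15.5% lower. Among 23 other target genes, 7 were higher and 1 lower, with a median difference of 0.93 against -0.13 over all genes. Among the higher genes were Timp1, an inhibitor of matrix proteases (3.60), and the collagen chains Col1a1 (1.64) and Col1a2 (1.19).

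Id3, an inhibitor of DNA binding that BMP signals induce, was the 1 target gene that was lower, at -1.11. Timp1 lay between -5.40 and -3.73 in C and between -1.31 and 0.04 in MCD mice, so the groups did not overlap. Under normexp with quantile normalization 5 target genes were higher and 0 lower, and with the arrays centred on their median 11 were higher and 0 lower. These settings called 23.5% and 26% of all genes in either direction, against 26.5% without them. They also moved the median difference of all genes from -0.13 to -0.05 and 0.24.

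Markers of other cells moved with these genes. The mean of the myofibroblast list, which shares 8 of its 10 genes with the target list, was 0.19 in C and 0.87 in MCD mice before PH, and that of recruited macrophages and monocytes was -1.37 and 0.99. The means of Kupffer cells (2.03 and 3.58), neutrophils (-0.86 and 0.19) and quiescent stellate cells (1.01 and 1.47) were also higher in MCD mice, and that of hepatocytes was lower (9.02 and 8.48). The myofibroblast and recruited macrophage means of M+Fc-GLP-1 mice before PH were 0.02 and -0.01, and their Ctgf mean was 3.23. In C+Fc-GLP-1 mice before PH the same 3 means were 0.52, -0.48 and 1.23. The part of these cells in the target genes was not tested.

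**Figure D4:**
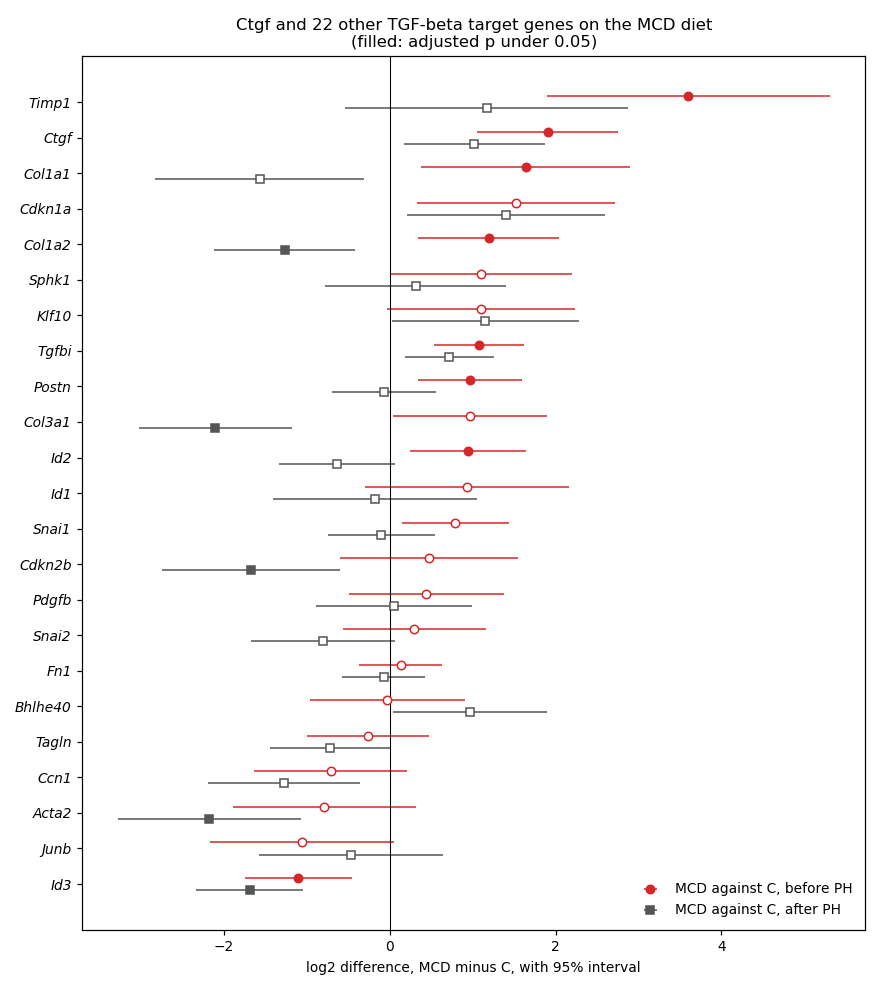
Differences between MCD and C mice on the log2 scale for Ctgf and 22 of the 23 other tested target genes, before PH (red circles) and after PH (grey squares), with filled symbols at an adjusted p under 0.05 and bars for 95% intervals. Ctgf, Timp1, Col1a1 and Col1a2 are among the genes called higher before PH, and after PH Col3a1, Col1a2, Acta2, Id3 and Cdkn2b are called lower.

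In M+Fc-GLP-1 against MCD mice before PH 1 target gene was higher, Snai2, a transcription factor of mesenchymal cells (1.36), and 2 were lower, Col3a1 (-1.99) and Klf10, a TGF beta-induced zinc finger factor (-1.76), of 23, with 4.43% of all genes called higher and 2.79% lower. Col3a1 lay between 2.32 and 2.71 in MCD and between 0.20 and 1.11 in M+Fc-GLP-1 mice. The diet by drug interaction was called for Col3a1 (-2.41, adjusted p = 0.0266 by limma). The difference of Timp1, -2.60, was not called (limma adjusted p = 0.0536).

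After PH, MCD against C mice gave 1 target gene higher and 5 lower of 23, with 6.05% of all genes called higher and 6.09% lower. Acta2, smooth muscle actin, Col3a1, Id3, Cdkn2b, a cell cycle inhibitor, and Col1a2 were lower, at -2.18, -2.11, -1.69, -1.67 and -1.27. Without the 3 arrays of high bile duct marker level 4 were higher and 4 lower, with 15% of all genes called, Timp1 being among the higher at 2.33 and Cdkn2b no longer called (-1.25, adjusted p = 0.0818). After against before PH in C mice, the collagens Col1a1, Col3a1 and Col1a2 and Timp1 rose by 2.77, 2.34, 2.25 and 3.78, with 6.08% of all genes called higher and 7.87% lower. Without the 3 arrays these rises were 1.98, 1.90, 1.73 and 2.63, all still called by limma. In the same comparison Klf10 and Bhlhe40 fell by 2.20 and 1.83. Diet by time was called for Col1a1, Col3a1 and Col1a2, at -3.21, -3.07 and -2.46, and without the 3 arrays at -2.42, -2.63 and -1.94, again called.

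Among the other ligands of the superfamily, 3 were higher and 2 lower of 13 in MCD against C mice before PH, a comparison with 26.5% of all genes called. Bmp7, an anti-fibrotic bone morphogenetic protein in several organs, was lower (-2.42), with -0.54 to 1.09 in C and -2.35 to -1.71 in MCD mice, and Bmp4 was lower too (-0.82). Inhbe, a hepatocyte activin subunit (1.54), Gdf2, a circulating ligand of endothelium (1.25), and Bmp2 (0.93) were higher. After PH Bmp7 and Inhbe were again called, at -3.21 and 1.99, as were Bmp2 and Bmp4, with 12.1% of all genes called. With Fc-GLP-1 in MCD mice after PH Bmp6, the ligand that induces hepcidin, was higher (1.53), and by 1.34 without the 3 arrays.

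Of the 6 other Smads, Smad2, the partner of Smad3, was higher in MCD than in C mice before PH (1.35), as were the inhibitory Smad6 (0.89) and the BMP transducer Smad5 (0.51). Of all genes, 10.9% were called higher in that comparison. Smad9, another BMP transducer, was higher with Fc-GLP-1 in MCD mice before PH (1.89) and after PH (1.79). It lay between -1.48 and -0.02 in MCD and between 0.66 and 1.41 in M+Fc-GLP-1 mice before PH.

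Of the 9 other receptors, Acvr1b was higher (0.98) and Acvr2b lower (-1.51) in MCD mice before PH, both activin receptors. This was a share near that of all genes, 26.5%. In the same comparison 1 of 13 genes of latency and activation was higher, Lrrc32, which anchors latent TGF beta on cells (0.69), and 2 were lower, Ltbp4 (-0.99) and plasminogen, Plg (-0.75), a share near that of all genes. Of 15 inhibitors, the Smad corepressor Skil was higher (0.81) and the ubiquitin ligase Smurf1 (-0.98) and the corepressor Ski (-0.77) were lower, again a share near or below that of all genes. Follistatin, Fst, which traps activins, was lower with MCD in treated mice, at -2.04 before and -2.78 after PH.

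After PH in C mice, 3 latency genes rose, Ltbp2 by 2.03, Fbn1, the fibrillin that holds latent complexes, by 1.67 and Nrros by 1.12, and Furin, which cleaves the ligand precursor, was lower (-0.99). Of all genes, 6.08% were called higher and 7.87% lower there. Without the 3 arrays Ltbp2 and Fbn1 were higher by 1.47 and 1.38 and were still called, while Nrros was not (0.65, adjusted p = 0.131). Gdf15, a stress-induced ligand, was lower after PH in C (-2.35), MCD (-1.70) and M+Fc-GLP-1 mice (-2.26).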

How the data were processed

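Liver RNA of 32 samples was hybridized to 1-colour arrays with 60-base probes, 62976 spots each. The authors deposited, for each array, the scanner software's processed intensity, which per the file headers was background corrected and detrended, and a table of normalized log2 values made, per the study's methods and the submitters' processing notes, with limma. Probe positions are those of mm9 in the scanner files.

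The intensity of each array was divided by its 75th percentile over 59305 non-control spots, which lay between 209.4 and 778.4, and log2 was taken. Spots marked as outliers by the scanner software were left out, and 426 probes lost all their spots on at least 1 array and were dropped. Probes had to exceed background clearly in every array of some group (28932 probes), and the brightest stood for its gene. RefSeq accessions named 27656 of the 55681 probes, and the others kept the scanner file's name. Between 36.2% and 69.1% of probes were well above background on an array, and precision is limited by the number of arrays. Fits used limma 3.58.1 (R 4.3.3) with 8 group means for 12 comparisons and 6 interactions, and Benjamini-Hochberg adjustment. Tables were handled with pandas 2.3.3.

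The genes, lists and alternatives were chosen with earlier results of these data known. At most 4 called genes per list and comparison, those with the largest differences, and for the members called the 3 genes of highest correlation were named. The values of 1 target gene, which stays in the counts, are not reported here. The remaining genes of small counts were named after their values were seen, as were the 3 arrays of high bile duct marker level (marker mean above 0). In data simulated for MCD against C before PH over 21071 genes, 200 of them changed, 23% of log2 changes of 1 and 89% of changes of 2 were recovered, with 5 false calls. The real comparison called 5574 genes. The adjusted threshold depends on how many genes change, so the simulated shares do not carry over to it. Alternatives were normexp (offset 50) with quantile normalization, median centring, the mean over a gene's probes, the authors' normalized values, dim probes kept, fits of only the groups compared, a replicate block and each array left out in turn. Same-numbered arrays did not deviate together (mean r 0.02 over 112 pairs, and 0.01 over the 16 pairs before and after PH of one group). Of 32 arrays, 6 correlated best with their own number. Replicate numbers were not taken as pairs, though a low correlation cannot exclude that a mouse gave both livers.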

Additional observations from a re-analysis of the deposited data

Results flagged for a closer look

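In each group of 4 arrays the highest and lowest value of each gene was compared with the rest of its group by Dixon's ratio. Of 72 groups of values 5 held an array whose gap exceeded the 95% critical value of 0.829, and chance alone marks about 1 in 20. Tgfb2 and Tgfb3 were both marked in M+Fc-GLP-1 replicate 4 after PH, where Tgfb2 was 0.69 with the nearest array at -2.57, and Tgfb3 was 1.68 with the nearest at -0.50. This is 1 of the 3 arrays of high bile duct marker level.

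Tgfbr1 was 0.16 in MCD replicate 1 after PH, with the nearest array at 1.25. Tgfbr3 was 1.57 in MCD replicate 4 before PH, with the nearest at 0.96. Smad7 was -3.76 in C+Fc-GLP-1 replicate 4 after PH, with the nearest at -1.08.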

How the results depend on the processing

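The counts of the 9 genes called moved by 1 or 2 genes with the processing, and the cause was not tested. For M+Fc-GLP-1 against MCD mice before PH, 0 became 1 under normexp with quantile normalization (Tgfbr3), under the authors' normalized values (Tgfbr3) and when only the groups compared were fitted (Tgfb2). Of all genes these settings called 12.1%, 10.1% and 6.86%, against 7.22% without these changes. For M+Fc-GLP-1 against C+Fc-GLP-1 mice before PH, 2 became 1 (Ctgf) under median centring, without the filter on dim probes and with only the groups compared, and lay between 1 and 2 with each array left out. Median centring, no filter and only the groups compared called 11.9%, 4.57% and 6.5% of all genes, against 10.4% without these changes. For MCD against C mice after PH, 1 became 0 without the filter and with only the groups compared, 3 with the mean over probes, and lay between 0 and 1 with each array left out, at 0 without C replicate 2 or 4 or MCD replicate 2 or 3. No filter, only the groups compared and the mean over probes called 5.23%, 7.65% and 13% of all genes, against 12.1% without these changes.

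For C mice after against before PH, 2 became 1 (Tgfbr3) under normexp, without the filter and with only the groups compared, and lay between 1 and 2 with each array left out, at 1 without C replicate 1, 3 or 4 before PH or 1, 2 or 4 after it. Normexp, no filter and only the groups compared called 13.7%, 8.26% and 5.52% of all genes, against 14% without these changes. For C+Fc-GLP-1 mice over time, 0 became 1 under normexp (Tgfbr3), where the share of all genes called went from 0.835% to 6.15%. For MCD mice over time, 0 became 2 with only the groups compared (Smad7 and Ctgf), where that share went from 9.43% to 11.6%. For M+Fc-GLP-1 mice over time, 0 became 1 under normexp (Tgfbr3) and without the 3 arrays of high bile duct marker level (Ctgf), and lay between 0 and 1 with each array left out, at 1 without replicate 2 before PH or 1 after it. Normexp and leaving out the 3 arrays called 2.88% and 2.02% of all genes, against 1.71% without these changes. Leaving out the 3 arrays, a choice made after seeing the data, gave 3 in C mice over time, with 8.07% of all genes called.

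With the replicate block the counts were 1, 0, 0, 2, 1, 0, 0, 0, 2, 0, 0 and 0 over the 12 comparisons, as without it, and the block changed no call. Median centring moved the median difference of all genes from -0.13 to 0.24 for MCD against C mice before PH. The slide as a random block could not be fitted beside the groups, since each slide holds whole groups, and was not run. The authors' values were not used over time because they were normalized separately before and after PH. Over single genes, 2677 differences under an alternative kept their direction and side of the threshold, 24 were no longer past it, 16 were newly past it, and 217 that were past it under neither changed sign. Tgfb2, well above background on 28 of 32 arrays, is limited by signal.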
